A study of Mus musculus with 2 samples.

Results

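The 10 genes described here encode the vascular endothelial growth factors Vegfa, Vegfb and Vegfc, their receptors Kdr, Flt1 and Flt4, the angiopoietins Angpt1 and Angpt2, the angiopoietin receptor Tek and the related receptor Tie1. They were taken by symbol from the 32285 genes of the deposited matrices, and all 10 were found. The data were single-cell RNA-seq counts of live mononuclear cells sorted from the limb muscle of aged C57BL/6 mice. One library came from mice injected with Maraviroc (MVC) and 1 from mice injected with the vehicle DMSO, both after the study's high-dose, short-term regimen. The number of mice pooled in a library was not given in the sources used here. Each group held 1 library, so no difference below could be set against the spread between mice, no test was made, and all intervals are 95% intervals that cover counting error only.

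VEGF ligands signal through receptor tyrosine kinases on endothelial cells. Kdr (VEGFR2) carries most of the response to Vegfa, Flt1 (VEGFR1) binds Vegfa and Vegfb tightly and can act as a decoy, and Flt4 (VEGFR3) binds Vegfc and serves lymphatic growth. Angpt1, made by cells around vessels, activates Tek (Tie2) and steadies the vessel wall, whereas Angpt2, made by endothelial cells themselves, can oppose it at sites of remodelling. Tie1 is an orphan relative that pairs with Tek. In skeletal muscle, capillaries run along every fibre, and resident fibroblasts and satellite cells are known sources of Vegfa.

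In the GENCODE M21 annotation of GRCm38, the ligand genes lie at chr17:46016993-46032369 (Vegfa, minus strand), chr19:6982473-6987651 (Vegfb, minus strand) and chr8:54077606-54187096 (Vegfc, plus strand). The VEGF receptor genes lie at chr5:75932827-75978458 (Kdr, minus strand), chr5:147561604-147726011 (Flt1, minus strand) and chr11:49609263-49652739 (Flt4, plus strand). The angiopoietin genes lie at chr15:42424723-42676977 (Angpt1, minus strand) and chr8:18690263-18741562 (Angpt2, minus strand), and their receptor genes at chr4:94739289-94874976 (Tek, plus strand) and chr4:118471191-118490061 (Tie1, minus strand). Promoter windows of RefSeq on GRCm38.p6, from 250 bases before to 50 bases after a gene's start, matched 8 of the 10 genes. The windows of Vegfa and of the 4 receptors that were highest in blood vessel endothelial cells are printed here because the results turn on these 5 genes. Capitals mark every match, on either strand, to an ETS core (AGGAAG or CGGAAG) or to a HIF core (ACGTG or GCGTG).
Vegfa promoter, chr17:46032328-46032627, minus strand: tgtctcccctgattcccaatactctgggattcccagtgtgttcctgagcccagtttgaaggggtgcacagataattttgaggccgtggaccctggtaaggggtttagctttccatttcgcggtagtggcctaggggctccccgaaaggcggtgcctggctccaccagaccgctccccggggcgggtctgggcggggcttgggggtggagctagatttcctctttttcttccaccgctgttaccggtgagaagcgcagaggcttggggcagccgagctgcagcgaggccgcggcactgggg
Kdr promoter, chr5:75978406-75978705, minus strand: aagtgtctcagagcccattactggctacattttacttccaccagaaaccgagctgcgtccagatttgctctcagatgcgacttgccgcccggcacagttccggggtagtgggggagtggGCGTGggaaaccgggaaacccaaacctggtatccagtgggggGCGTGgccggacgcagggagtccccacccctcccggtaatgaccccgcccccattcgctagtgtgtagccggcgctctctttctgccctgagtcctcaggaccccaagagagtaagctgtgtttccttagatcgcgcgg
Flt1 promoter, chr5:147725962-147726261, minus strand: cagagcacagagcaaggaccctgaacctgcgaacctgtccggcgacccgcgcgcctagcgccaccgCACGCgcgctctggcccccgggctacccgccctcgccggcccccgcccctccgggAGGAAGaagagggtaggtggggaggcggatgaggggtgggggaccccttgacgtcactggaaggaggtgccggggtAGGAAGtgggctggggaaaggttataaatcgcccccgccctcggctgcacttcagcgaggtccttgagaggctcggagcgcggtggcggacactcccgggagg
Tek promoter, chr4:94739039-94739338, plus strand: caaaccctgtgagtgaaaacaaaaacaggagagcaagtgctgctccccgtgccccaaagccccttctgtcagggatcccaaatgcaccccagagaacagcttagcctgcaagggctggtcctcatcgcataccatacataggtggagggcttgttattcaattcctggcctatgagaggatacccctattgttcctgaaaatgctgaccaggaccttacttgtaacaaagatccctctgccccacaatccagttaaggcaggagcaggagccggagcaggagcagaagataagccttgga
Tie1 promoter, chr4:118489800-118490099, minus strand: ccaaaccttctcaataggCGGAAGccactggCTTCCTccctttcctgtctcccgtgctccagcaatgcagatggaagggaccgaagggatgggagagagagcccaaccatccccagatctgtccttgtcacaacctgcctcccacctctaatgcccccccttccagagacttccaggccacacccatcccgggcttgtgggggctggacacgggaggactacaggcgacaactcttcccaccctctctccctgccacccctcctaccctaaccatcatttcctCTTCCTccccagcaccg

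The endothelial receptors differed in these letters. The Flt1 window held 2 ETS cores and 1 HIF core, the Tie1 window 3 ETS cores, the Kdr window 2 HIF cores, and the Tek window none of either. The printed Vegfa window held none, and a second RefSeq start of Vegfa, with its window at chr17:46025114-46025413, held 2 HIF cores. The Vegfb window held 2 HIF cores, and those of Vegfc and Flt4 held no match. Of 32851 promoter windows, 46.5% held an ETS core and 43.8% a HIF core, so a match is common, and it describes the letters only.

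The DMSO library held 5437 cells and the MVC library 5454 cells after cells under 500 genes or over 10% mitochondrial UMIs were left out (UMIs, unique molecular identifiers, count the molecules). Median depth was 5802 and 5195 UMIs per cell, and 9 barcodes occurred in both libraries. Clustering without the 10 genes gave 28 clusters, of which 25 were named from marker genes into 14 classes, each written "X-like", and 368 cells in 3 clusters stayed unnamed. The endothelial (EC-like) class comprised 2209 DMSO and 2079 MVC cells with a median of 3810 and 3269 UMIs. Of these, 74.8% and 76.6% were capillary, 13.9% and 13.2% arterial, and 11.2% and 10.2% venous. Levels are given as CPM, UMIs per 1000000 UMIs of the same class and library. The 9 capillary markers summed to 20934 CPM in DMSO and 12369 CPM in MVC capillary cells. The 8 EC markers summed to 6041 and 5081 CPM in capillary, 5213 and 4751 CPM in arterial, and 4791 and 4265 CPM in venous cells, lower in MVC in each. They summed to 158 CPM in DMSO and 208 CPM in MVC fibro-adipogenic progenitors (FAP-like cells), with none of the 8 at 0, which bears on every endothelial gene counted outside EC-like cells.

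The receptors Kdr, Flt1, Flt4 and Tie1 were mainly endothelial. Among the ligands, Vegfa and Angpt1 came mostly from stromal cells, and Angpt2 and much of Vegfc from endothelial cells. FAP-like cells held 41.7% of the Vegfb UMIs in DMSO and 48.6% in MVC, and tenocyte-like cells 10% and 12.3%. Kdr, Flt1 and Tie1 had their highest level in capillary EC-like cells, Tek in arterial EC-like cells and Flt4 in lymphatic EC-like cells, in both libraries. All EC-like cells together held 85.7% of all Kdr UMIs in DMSO and 83.5% in MVC. FAP-like cells held 61.4% and 65% of all Vegfa UMIs from 21.5% and 26% of the cells. Arterial EC-like cells alone held 40.8% and 33.2% of the Vegfc UMIs from 5.66% and 5.02% of the cells. EC-like cells as a whole held 69.3% and 63.2% of the Angpt2 UMIs and 54.3% and 46.5% of the Vegfc UMIs. Tek was divided, with 58.2% and 49.5% of its UMIs in EC-like and 33% and 40.2% in FAP-like cells.

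**Figure D1:**
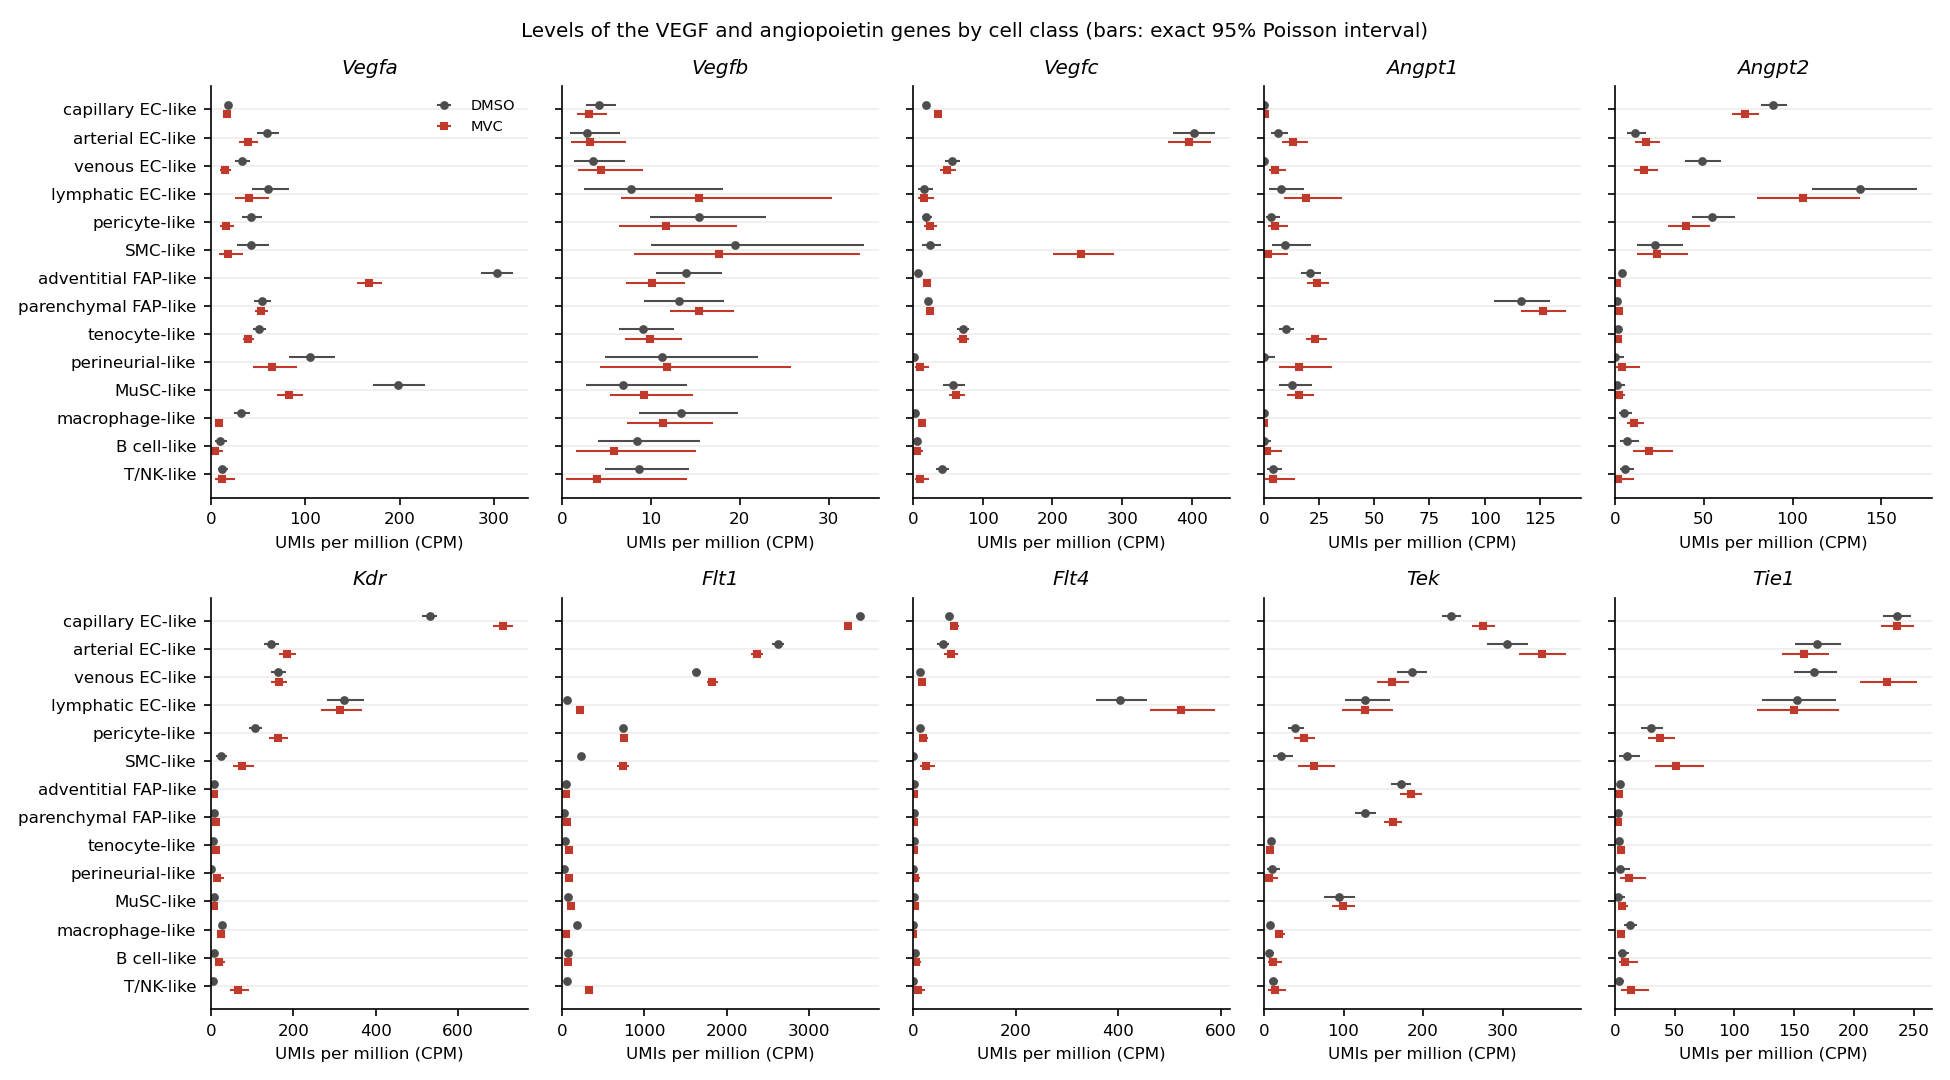
Level of each of the 10 genes (x axis, CPM on a linear scale from 0, own range per panel) in 14 cell classes and subtypes (y axis), with circles for the DMSO library, squares for the MVC library and bars for exact Poisson 95% intervals. Kdr, Flt1 and Tie1 lie highest in capillary EC-like cells (3620 CPM in DMSO and 3471 CPM in MVC for Flt1), Vegfc in arterial EC-like cells, and Vegfa in adventitial FAP-like and MuSC-like cells.

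Vegfa, the main ligand of Kdr, was highest in adventitial FAP-like cells (the Pi16-expressing fibroblasts around larger vessels) and in satellite cells (MuSC-like), and it was lower in MVC in both. In adventitial FAP-like cells the level was 303 CPM in DMSO (1281 UMIs in 304 cells) and 168 CPM in MVC (662 UMIs in 344 cells), a ratio of 0.554 (0.503 to 0.609). In MuSC-like cells it was 198 CPM in DMSO (203 UMIs in 144 cells) and 83 CPM in MVC (153 UMIs in 257 cells), a ratio of 0.419 (0.338 to 0.52). After each cell was thinned to 2000 UMIs, the share of cells with a Vegfa UMI was 32.3% and 20.4% in adventitial FAP-like cells and 23% and 11.7% in MuSC-like cells. B cell-like cells, read for comparison, gave a share of 1.49% in DMSO at that depth and 0 of 91 cells in MVC, which allows a share of up to 3.3%. How much of that share is background was not tested. The median depth before thinning was 13704 and 11031 UMIs in adventitial FAP-like, 6758 and 6430 UMIs in MuSC-like and 5071 and 5334 UMIs in B cell-like cells.

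The other FAP-like clusters held less Vegfa and differed less between the libraries. Parenchymal FAP-like cells (led by Cxcl14) had 54.5 and 53.4 CPM, a ratio of 0.979 (0.799 to 1.2). A cluster led by Ifi205 had 86.8 and 70.7 CPM (ratio 0.814, 0.693 to 0.956), and one led by Gdf10 had 75.1 and 67.4 CPM (ratio 0.897, 0.647 to 1.24). The ratio was thus furthest from 1 in the cluster with the highest level, and whether the clusters differ in this was not tested. Over all FAP-like cells Vegfa was at 151 CPM in DMSO and 92.5 CPM in MVC (ratio 0.614, 0.571 to 0.66). Parenchymal cells, which hold little Vegfa, made up 279 of 1169 FAP-like cells in DMSO and 525 of 1420 in MVC. With the clusters weighted as in DMSO the ratio was 0.657.

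**Figure D2:**
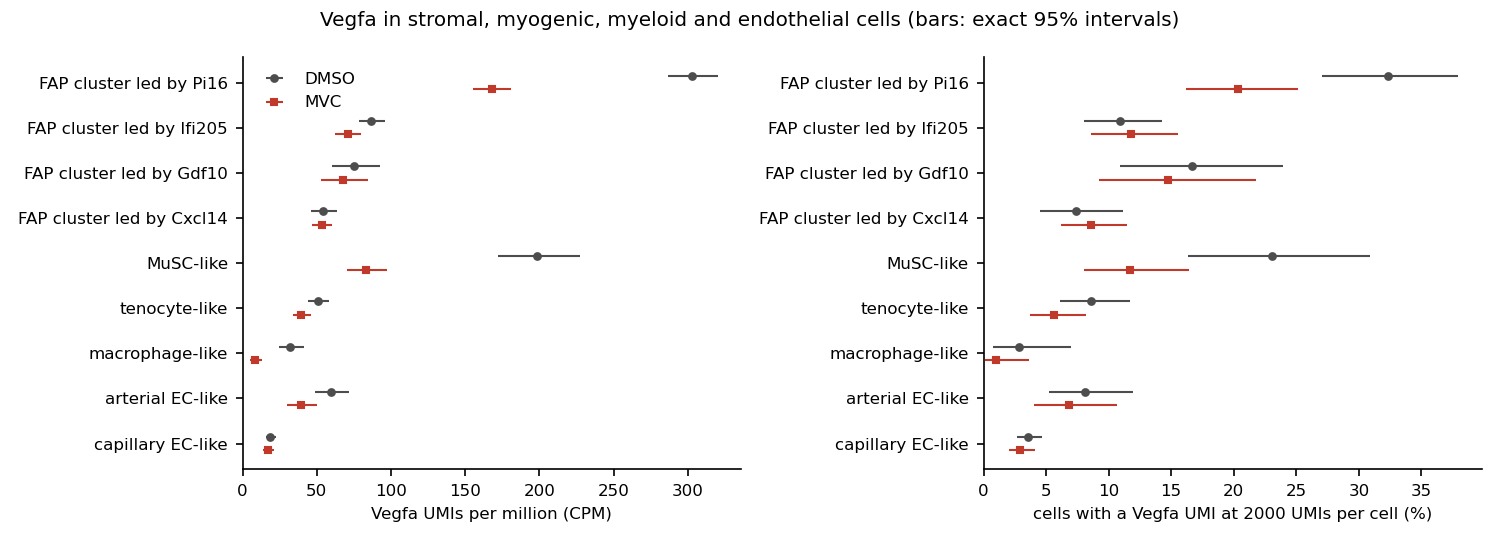
Vegfa level (left, CPM with exact Poisson 95% intervals) and share of cells with a Vegfa UMI at 2000 UMIs per cell (right, percent with Clopper-Pearson 95% intervals) in the DMSO (circles) and MVC (squares) libraries, for the 4 FAP-like clusters and 5 other classes. The FAP cluster led by Pi16, the adventitial one (303 and 168 CPM), and MuSC-like cells (198 and 83 CPM) stand furthest apart, and the cluster led by Cxcl14, the parenchymal one (54.5 and 53.4 CPM), overlaps.

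Vegfa also lay below the DMSO level in classes that hold less of it. Perineurial-like cells, of the sheath around nerves, had 105 and 65 CPM (ratio 0.619, 0.398 to 0.943), and tenocyte-like cells had 51 and 39.5 CPM (ratio 0.775, 0.626 to 0.957). Arterial EC-like cells had 59.4 and 39.2 CPM (ratio 0.659, 0.475 to 0.909) and venous EC-like cells 32.6 and 14.5 CPM (ratio 0.445, 0.264 to 0.725). In capillary EC-like cells, with 18.6 and 17.3 CPM, the interval of the ratio included 1 (0.927, 0.694 to 1.23), so no difference could be seen with these counts. The arterial and venous ratios moved to 0.922 and 0.796 after thinning to 2000 UMIs, on 49 and 20 UMIs. Macrophage-like cells had 32.1 and 8.07 CPM (60 and 17 UMIs, ratio 0.251, 0.137 to 0.436) and pericyte-like cells 43 and 15.9 CPM (67 and 19 UMIs, ratio 0.37, 0.21 to 0.623). In these 2 classes 3 cells carried 56.7% and 73.1% of the DMSO UMIs, and without the 3 highest cells of each library the ratios were 0.338 and 0.722.

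MuSC-like cells were set apart from all FAP-like cells together by their Vegfa level in DMSO only. In DMSO, MuSC-like cells (198 CPM, 172 to 227) lay above all FAP-like cells together (151 CPM, 144 to 158), and their intervals did not overlap. In MVC, FAP-like cells (92.5 CPM, 87.4 to 97.8) and MuSC-like cells (83 CPM, 70.4 to 97.3) had overlapping intervals. By subtype the order was the same in both libraries. Adventitial FAP-like, MuSC-like and parenchymal FAP-like cells had 303, 198 and 54.5 CPM in DMSO and 168, 83 and 53.4 CPM in MVC. Vegfa is a target of the hypoxia-inducible factors, and 15 other genes of that kind were read beside it. Of 13 such genes with at least 50 UMIs in FAP-like cells, 0 were past 1.5-fold (median log2 ratio -0.01), where 14.9% of all genes tested were. Of 9 in MuSC-like cells, Vldlr was higher and Slc2a1 and Ero1a lower by more than 1.5-fold (median log2 ratio -0.21), beside 19.4% of all genes. In macrophage-like cells 2 of 8 were lower past that fold and 6 of 8 lay below 1 (median log2 ratio -0.40), beside 16.3% of all genes. Genes induced by tissue dissociation moved in several of these classes. Of 21, 8 were higher and 2 lower past 1.5-fold in MuSC-like cells (median log2 ratio 0.52), and 3 were lower in FAP-like cells (median log2 ratio -0.02). In pericyte-like cells 5 of 21 were lower, beside 15.7% of all genes, and 20 of 21 lay below 1 (median log2 ratio -0.49). In macrophage-like cells 3 were higher and 1 lower (median log2 ratio 0.25). Over all genes tested the median log2 ratio was 0.14 in FAP-like, -0.02 in MuSC-like, 0.04 in macrophage-like and 0.06 in pericyte-like cells. Hypoxia genes had medians of -0.12, -0.18 and -0.21 in capillary, arterial and venous EC-like cells, beside 0.10, 0.04 and -0.06 over all genes. The part of both lists in the Vegfa levels was not tested.

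Vegfb, a ligand of Flt1 that is known for its expression in muscle and heart, was low in all mononuclear classes and alike in both libraries. It had 11.8 CPM in DMSO FAP-like cells (150 UMIs) and 12 CPM in MVC (162 UMIs), a ratio of 1.01 (0.806 to 1.27). EC-like cells had 3.78 and 3.32 CPM (ratio 0.879, 0.517 to 1.47) and tenocyte-like cells 9.09 and 9.94 CPM (ratio 1.09, 0.682 to 1.76). The few muscle fibre-like fragments (15 and 26 cells) had 88.4 and 78.7 CPM, on 12 and 8 UMIs. Over all cells the level was 9.29 and 9.38 CPM, and in each class with a ratio its interval included 1. Outside FAP-like cells as a whole these intervals reached past 1.5-fold in at least 1 direction, so a difference of that size was not detectable there.

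Vegfc, the ligand of Flt4, was an arterial gene in these cells. Arterial EC-like cells had 402 CPM in DMSO (718 UMIs) and 395 CPM in MVC (636 UMIs), a ratio of 0.982 (0.881 to 1.09). After thinning, 40.6% and 44% of them had a Vegfc UMI. Tenocyte-like cells came next among classes of at least 100 cells with 71.2 and 71.3 CPM (ratio 1, 0.847 to 1.18), followed by MuSC-like cells with 57.6 and 62.4 CPM and venous EC-like cells with 56.3 and 49.1 CPM. The intervals of these 3 classes overlapped one another in DMSO.

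Vegfc was higher in MVC in capillary EC-like cells, where it was scarce. The level there was 18.9 CPM in DMSO (123 UMIs) and 35.7 CPM in MVC (176 UMIs), a ratio of 1.89 (1.49 to 2.4). With cells thinned to 2000 UMIs the share with a UMI was 2.26% and 4.36%. Over all capillary cells it was 3.63% (2.78% to 4.65%) and 4.84% (3.84% to 6.01%), with overlapping intervals. The 4 capillary clusters, named here by a leading gene, did not move alike. The level was 14.7 and 95.5 CPM in the Terb2 cluster (14 and 76 UMIs), 14.6 and 36.1 CPM in the Rassf9 cluster, 19.7 and 27.4 CPM in the Depp1 cluster, and 20.6 and 11.8 CPM in the Slc1a1 cluster. With the 4 clusters weighted as in DMSO the capillary ratio was 1.63, and over the other alternatives it ranged from 1.64 to 2.33.

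Smaller pools of Vegfc differed too, on UMIs from few cells. Smooth muscle (SMC-like) cells had 24.3 CPM in DMSO (15 UMIs in 64 cells) and 242 CPM in MVC (123 UMIs in 48 cells), a ratio of 9.94 (5.8 to 18.3), and 3 cells carried 48.8% of the MVC UMIs. The summed EC markers in the same cells were at 507 and 1249 CPM, and their part in the difference was not tested. Adventitial FAP-like cells had 7.33 and 20.3 CPM (ratio 2.77, 1.81 to 4.33), again with 56.2% of the MVC UMIs in 3 cells. T/NK-like cells had 41.5 and 9.76 CPM (72 and 5 UMIs), with 69.4% of the DMSO UMIs in 3 cells.

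Kdr, the main signalling receptor for Vegfa, was highest in capillary EC-like cells and higher there in MVC. The capillary level was 531 CPM in DMSO (3451 UMIs) and 709 CPM in MVC (3496 UMIs), a ratio of 1.34 (1.27 to 1.4). After thinning, 56.7% of DMSO and 67% of MVC capillary cells had a Kdr UMI, against 0.495% and 4.4% of B cell-like cells. Thinning left out 191 of 1653 DMSO and 537 of 1592 MVC capillary cells. Over all capillary cells the share was 70.5% (68.3% to 72.7%) and 68% (65.6% to 70.3%), with overlapping intervals, at a median depth of 3435 and 2844 UMIs. By level, lymphatic EC-like cells came next with 324 and 314 CPM, then venous cells with 164 and 164 CPM (ratio 1, 0.85 to 1.18) and arterial cells with 146 and 185 CPM (ratio 1.27, 1.07 to 1.5). Venous and arterial cells had overlapping intervals in both libraries.

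The mix of capillary clusters moved with the capillary Kdr level. Within clusters, Kdr was at 395 and 429 CPM in the Slc1a1 cluster (ratio 1.09), 616 and 814 CPM in the Depp1 cluster (ratio 1.32), 998 and 1060 CPM in the Rassf9 cluster (ratio 1.06) and 499 and 529 CPM in the Terb2 cluster (ratio 1.06). The 4 ratios were above 1 and below that of the capillary class as a whole, and the interval left out 1 only in the Depp1 cluster (1.22 to 1.44). The Rassf9 cluster, with the highest Kdr, made up 12.4% of capillary cells in DMSO and 28% in MVC, and the Slc1a1 cluster, with the lowest, made up 46.8% and 28.5%. With the clusters weighted as in DMSO the Kdr ratio was 1.16. The clusters were found without the 10 genes, but on other genes of these same cells, so their shares describe these libraries only.

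**Figure D3:**
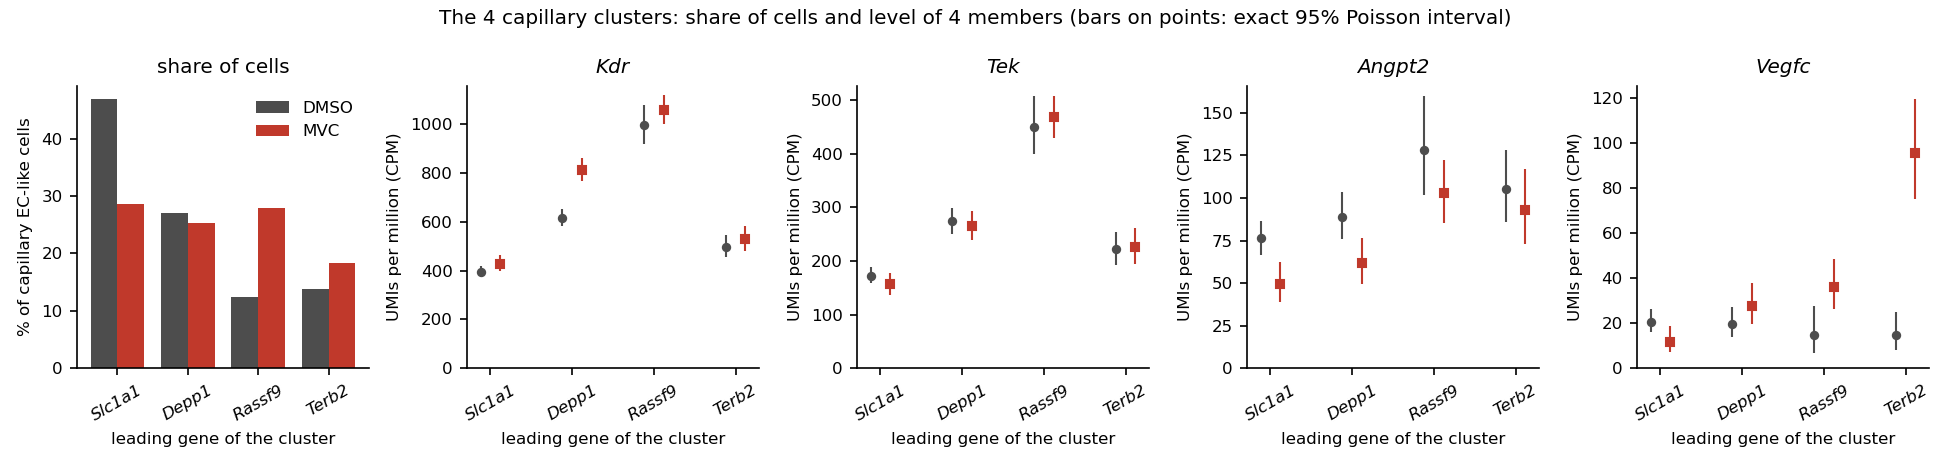
The 4 capillary EC-like clusters by leading gene (x axis), with their share of capillary cells (first panel, percent) and the level of Kdr, Tek, Angpt2 and Vegfc (other panels, CPM with exact Poisson 95% intervals) in the DMSO and MVC libraries. Kdr and Tek are highest in the Rassf9 cluster in both libraries (998 and 1060 CPM for Kdr), which makes up 12.4% of DMSO and 28% of MVC capillary cells.

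Flt1 was detected in nearly all capillary and arterial EC-like cells and differed little there. It was found in 98.8% and 98.6% of capillary EC-like cells after thinning, with 3620 CPM in DMSO and 3471 CPM in MVC (ratio 0.959, 0.94 to 0.978). Arterial EC-like cells had 2621 and 2365 CPM (ratio 0.902, 0.864 to 0.942). Venous EC-like cells, the lowest of the 3, had 1631 and 1822 CPM (ratio 1.12, 1.06 to 1.17). The order of capillary, arterial and venous cells was the same in both libraries, with no overlap of their intervals.

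Outside EC-like cells, most Flt1 UMIs lay in cells that also held EC marker UMIs. FAP-like cells had 38.2 CPM in DMSO and 73.5 CPM in MVC (ratio 1.92, 1.72 to 2.15), and tenocyte-like cells had 43.2 and 85.8 CPM (ratio 1.99, 1.65 to 2.4). The share of thinned FAP-like cells with a Flt1 UMI was 3.65% and 6.69%. It was 3.96% (1.73% to 7.65%) and 8.79% (3.87% to 16.6%) in B cell-like cells, and the intervals overlapped. Median depth before thinning was 10396 and 9206 UMIs in FAP-like and 5071 and 5334 UMIs in B cell-like cells. How much of the FAP-like share is background was not tested. Without the cells that held at least 2 UMIs of the 8 EC markers (263 DMSO and 386 MVC FAP-like cells), the FAP-like level was 8.59 and 17.9 CPM (ratio 2.09, 1.59 to 2.76), still higher in MVC at a lower level. The tenocyte-like level then was 12.4 and 16.5 CPM (ratio 1.34, 0.861 to 2.09). Macrophage-like cells went the other way, with 187 and 54.1 CPM (ratio 0.289, 0.232 to 0.359), and their summed EC markers were at 274 and 156 CPM. Without 29 and 38 cells with EC marker UMIs their Flt1 level was 19.5 and 22.8 CPM, a ratio of 1.17 (0.695 to 1.98) that no longer lay below 1.

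Pericyte-like cells held the most endothelial RNA of the mural and stromal classes, and 13.2% of them in DMSO and 9.44% in MVC were called as doublets. Their summed EC markers were at 1234 and 1299 CPM. Flt1 in them was at 745 and 750 CPM (ratio 1.01, 0.922 to 1.1), and at 109 and 149 CPM without the cells with EC marker UMIs. Kdr was at 107 and 163 CPM (ratio 1.52, 1.23 to 1.88), and at 23.3 and 36.6 CPM without those cells (12 and 17 UMIs). Most of the endothelial receptor UMIs in this class were thus in cells that also held EC marker UMIs.

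Flt4, the receptor for Vegfc, had its highest level in lymphatic EC-like cells, but most of its UMIs lay in the more numerous EC-like cells. EC-like cells held 64.5% of the Flt4 UMIs in DMSO and 59.1% in MVC, and capillary cells alone held 50.1% and 43.2%. Lymphatic EC-like cells held 28.1% and 29.5%, from 1.38% and 1.45% of the cells. Lymphatic EC-like cells (75 and 79 cells) had 404 CPM in DMSO (260 UMIs) and 522 CPM in MVC (271 UMIs), a ratio of 1.29 (1.09 to 1.54). The thinned share was 44% and 62.3%. Capillary EC-like cells had 71.2 and 80.6 CPM (ratio 1.13, 0.987 to 1.3), arterial cells 58.3 and 74 CPM (ratio 1.27, 0.967 to 1.67) and venous cells 14.3 and 17.6 CPM (ratio 1.23, 0.707 to 2.15). Venous cells lay below the other subtypes in both libraries, while capillary and arterial intervals overlapped. In the 3 blood vessel subtypes the interval of the ratio included 1.

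Angpt1, the activating ligand of Tek, was made mainly by FAP-like cells. Among the FAP-like clusters it was lowest in the adventitial one, which held the most Vegfa. The cluster led by Gdf10 had 131 and 145 CPM and parenchymal FAP-like cells 116 CPM in DMSO (327 UMIs) and 126 CPM in MVC (616 UMIs), a ratio of 1.09 (0.948 to 1.25). The Ifi205 cluster had 41.9 and 39.6 CPM and adventitial FAP-like cells 21.1 and 24.1 CPM. Over all FAP-like cells the level was 59.5 and 74.8 CPM (ratio 1.26, 1.14 to 1.38), and it was 1.06 with the clusters weighted as in DMSO. Capillary EC-like cells, which carry the receptor, had 1 and 3 UMIs, and macrophage-like cells had 0 UMIs in both libraries, which allows a level of up to 1.61 and 1.42 CPM.

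Tenocyte-like cells held little Angpt1, and more in MVC. Their level was 9.84 CPM in DMSO (39 UMIs) and 23.3 CPM in MVC (96 UMIs), a ratio of 2.36 (1.61 to 3.52) that ranged from 2.19 to 3.15 over the alternatives. The cluster led by Wif1 held most of it, with 17.1 and 42 CPM. Summed over all cells, Angpt1 was at 22.8 and 35 CPM (ratio 1.53, 1.41 to 1.67), a value that also moves with the larger number of FAP-like cells in MVC.

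Angpt2, the endothelial antagonist of Angpt1, was an endothelial and pericyte gene and lay lower in MVC capillaries. Lymphatic EC-like cells had the highest level, with 138 and 106 CPM (ratio 0.767, 0.538 to 1.09). Capillary EC-like cells had 89.1 CPM in DMSO (579 UMIs) and 73.3 CPM in MVC (361 UMIs), a ratio of 0.822 (0.719 to 0.94). With the capillary clusters weighted as in DMSO the ratio was 0.726, further from 1. The summed EC markers of capillary cells were also lower in MVC, at 6041 and 5081 CPM. How far the Angpt2 difference goes with theirs was not tested. The Rassf9 cluster, more frequent in MVC, had the highest Angpt2 of the 4 in both libraries. The Slc1a1 cluster had 76.2 and 49.7 CPM (ratio 0.652, 0.496 to 0.848), the Depp1 cluster 89 and 62.1 CPM (ratio 0.697), the Rassf9 cluster 128 and 103 CPM, and the Terb2 cluster 105 and 93 CPM. All 4 ratios were below 1, and in the last 2 clusters the interval included 1. Pericyte-like cells had 54.6 and 40.2 CPM (ratio 0.737, 0.506 to 1.06).

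Venous and arterial EC-like cells held less Angpt2. Venous cells had 48.9 CPM in DMSO (99 UMIs) and 16.4 CPM in MVC (26 UMIs), a ratio of 0.335 (0.209 to 0.521). The highest 3 venous cells of each library carried 51.5% and 50% of these UMIs, and the ratio without them was 0.343. The share of thinned venous cells with an Angpt2 UMI was 3.17% and 3.24%. Arterial cells had 11.2 and 17.4 CPM (ratio 1.55, 0.844 to 2.91), on 20 and 28 UMIs.

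Tek, the angiopoietin receptor, was found in blood vessel endothelial cells and also in FAP-like and MuSC-like cells. Arterial EC-like cells had 305 and 349 CPM (ratio 1.15, 1.02 to 1.29), capillary cells 236 and 275 CPM (ratio 1.17, 1.09 to 1.26), venous cells 186 and 161 CPM (ratio 0.866, 0.736 to 1.02) and lymphatic cells 127 and 127 CPM. The 3 blood vessel subtypes kept this order in both libraries without overlapping intervals. Within the capillary clusters the Tek level was 173 and 156 CPM (Slc1a1), 274 and 266 CPM (Depp1), 451 and 468 CPM (Rassf9) and 222 and 226 CPM (Terb2). None of these pairs differed as much as the capillary class, whose ratio was 0.967 with the clusters weighted as in DMSO.

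The Tek of FAP-like cells was as high in cells with few endothelial UMIs. Adventitial FAP-like cells had 172 and 184 CPM (727 UMIs in each library, ratio 1.07, 0.966 to 1.19), and parenchymal FAP-like cells 127 and 162 CPM (ratio 1.28, 1.13 to 1.45). The adventitial interval overlapped that of venous EC-like cells in both libraries. Over all FAP-like cells Tek was at 109 and 130 CPM, and it was at 111 and 129 CPM without the cells with EC marker UMIs, as against 8.59 and 17.9 CPM for Flt1 in place of 38.2 and 73.5 CPM. A Pecam1 UMI, an EC marker, was found in 12.7% and 15.3% of the adventitial cells with a Tek UMI and in 7% and 6.34% of those without, at a median depth of 14024 and 12752 UMIs against 12854 and 8928 UMIs. MuSC-like cells had 93.7 and 99.3 CPM (ratio 1.06, 0.824 to 1.37), and 96.8 and 93.4 CPM without the cells with EC marker UMIs. Thinned shares were 14.9% and 17.2% in FAP-like and 16.5% and 10.5% in MuSC-like cells, against 0.99% and 1.1% in B cell-like cells.

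Angpt1 and Tek were thus measured in the same FAP-like clusters. Among parenchymal FAP-like cells, an Angpt1 UMI was found in 44.1% of DMSO and 48.3% of MVC cells with a Tek UMI and in 35.7% and 35.4% of those without. The cells with Tek were deeper, at a median of 10492 and 10082 UMIs against 9160 and 7910 UMIs, so depth moves with this difference. Macrophage-like cells, in which some subsets are known to carry Tek, had 7.5 and 19.5 CPM (14 and 41 UMIs, ratio 2.6, 1.39 to 5.15). Their thinned share was 2.1% and 3.03%, beside 0.99% and 1.1% in B cell-like cells, with overlapping intervals. Without the cells with EC marker UMIs, macrophage-like cells held 2 and 10 Tek UMIs (ratio 4.41, 0.941 to 41.4).

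Tie1, the orphan partner of Tek, was found in all 4 kinds of endothelial cell, with little outside them. Capillary EC-like cells had 236 and 236 CPM (ratio 1, 0.928 to 1.08), arterial cells 169 and 159 CPM (ratio 0.936, 0.789 to 1.11) and lymphatic cells 152 and 150 CPM. Venous EC-like cells were the exception, with 167 CPM in DMSO (338 UMIs) and 228 CPM in MVC (362 UMIs), a ratio of 1.37 (1.18 to 1.59). It was between 1.24 and 1.52 over the alternatives, and in MVC the venous and capillary intervals overlapped. FAP-like cells had 2.91 and 3.84 CPM and MuSC-like cells 2.93 and 5.97 CPM (3 and 11 UMIs), classes in which Tek was found.

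Counted against all genes, no member was past 1.5-fold in EC-like cells as a whole, and 1 to 3 members were in each other class counted. A gene was counted as past 1.5-fold when its ratio was at least 1.5 or at most its inverse, among genes with at least 50 UMIs over both libraries in the class. In EC-like cells 0 of 9 members with that many UMIs were past it, where 13.8% of 11582 genes were. In capillary EC-like cells it was 1 of 8 (Vegfc, higher) against 16.5% of genes, in arterial cells 1 of 7 (Vegfa, lower) against 12.3%, and in venous cells 2 of 8 (Vegfa and Angpt2, lower) against 19%. The median log2 ratio of the members was 0.06 in EC-like cells, beside 0.07 over all genes tested there. Read against those shares, the counts in EC-like cells are no result about the members.

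In FAP-like cells 3 of 10 members were past 1.5-fold (Flt1 and Flt4 higher, Vegfa lower) against 14.9% of genes. All genes together lay higher by a median log2 ratio of 0.14 there, and relative to that shift Vegfa was at 0.559, Flt1 at 1.75 and Flt4 at 1.39. Flt4 rested on 19 and 31 UMIs, and its interval included 1 (1.53, 0.838 to 2.87). In tenocyte-like cells it was 3 of 7 (Kdr, Flt1 and Angpt1, higher) against 14.7%, of which Kdr had 21 and 55 UMIs (5.3 and 13.3 CPM). In pericyte-like cells it was 2 of 7 (Kdr higher, Vegfa lower) against 15.7%, in MuSC-like cells 1 of 4 (Vegfa, lower) against 19.4%, and in macrophage-like cells 3 of 4 (Tek higher, Vegfa and Flt1 lower) against 16.3%. The members with fewer than 50 UMIs in a class are not counted in it, so these are not statements about all 10 genes.

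**Figure D4:**
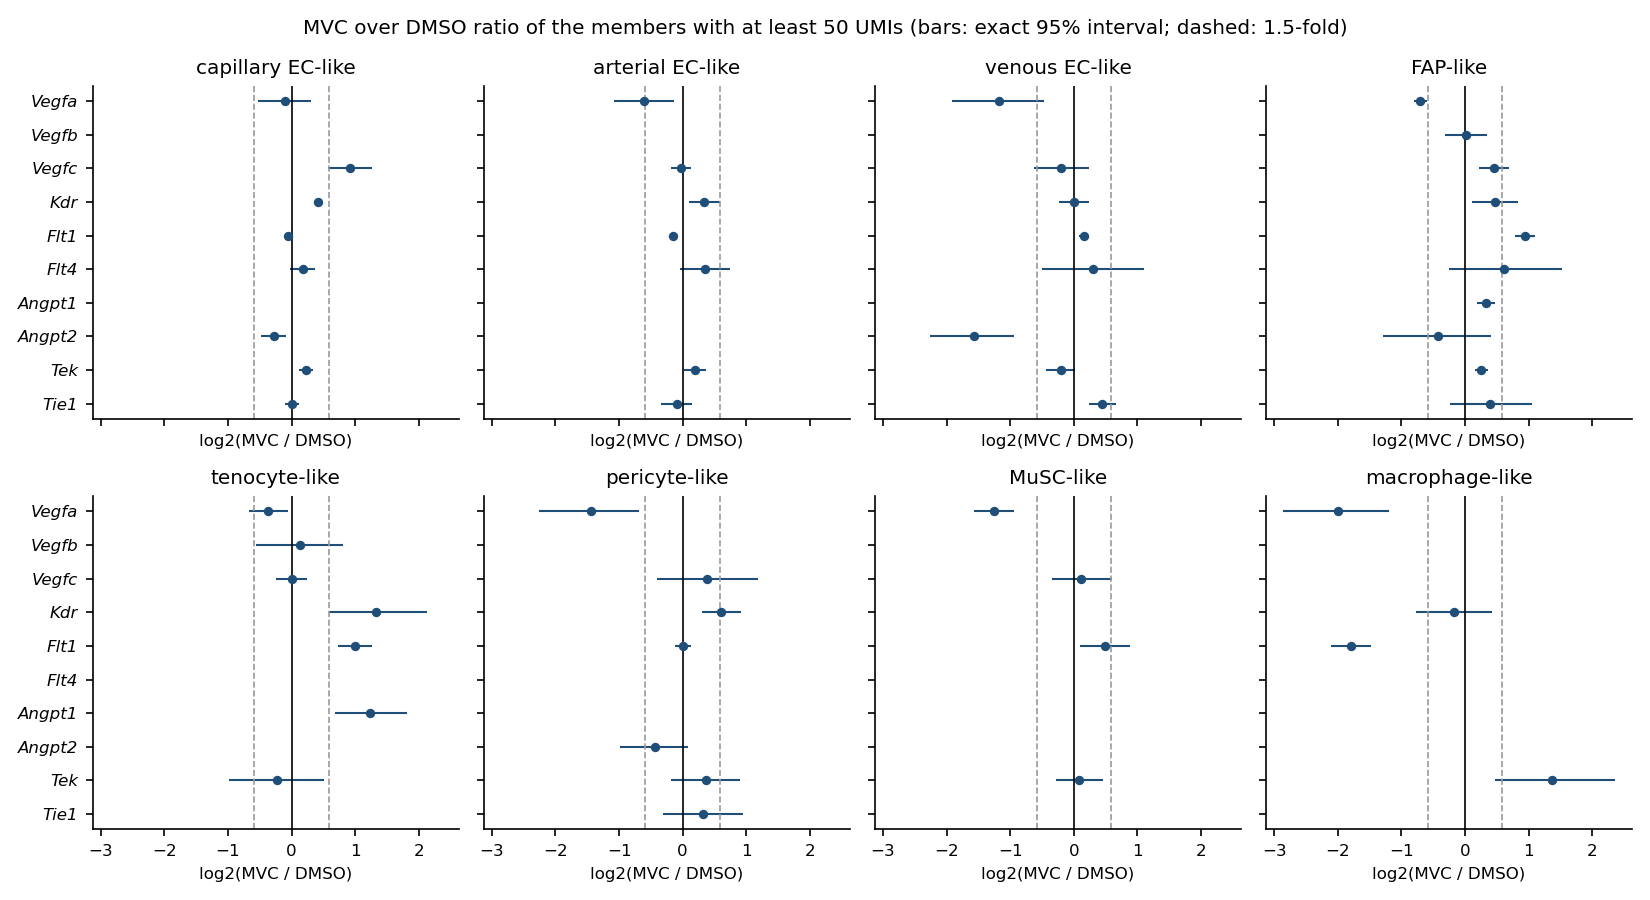
Ratio of the MVC to the DMSO level (x axis, log2, with exact conditional 95% intervals) of each member with at least 50 UMIs, in 8 cell classes. The solid line marks equal levels and dashed lines 1.5-fold, and Vegfa lies left of the solid line in all 8 panels, though in capillary EC-like cells (0.927) it was at 1.02 with clusters weighted as in DMSO.

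Around the 10 genes, some other genes of the pathway were past 1.5-fold in EC-like cells and others were not. Of 18 such genes, 14 had at least 50 UMIs in EC-like cells and 6 of these were past 1.5-fold, beside 13.8% of all genes tested. Among the others, the co-receptor Nrp1 was at a ratio of 0.928, the VEGF-induced Rcan1 at 0.963 and Dll4 at 0.737. Nid2 was at 1.09, Nrp2 at 1.12, Ptprb at 1.22, Vegfd at 1.27 and Plxnd1 at 1.31. Esm1, a secreted proteoglycan of tip cells that VEGF induces, was at 27.6 CPM in DMSO (285 UMIs) and 7.88 CPM in MVC (64 UMIs), a ratio of 0.285 (0.214 to 0.375). Pgf, a ligand of Flt1, was at 46.8 and 13.9 CPM (ratio 0.298, 0.24 to 0.366), and Cxcr4, a chemokine receptor of tip cells, at 12.5 and 7.02 CPM (ratio 0.561, 0.403 to 0.772). Vash1, a feedback inhibitor of angiogenesis, was higher, with 8.54 and 20.6 CPM (ratio 2.41, 1.85 to 3.15), as were Egr3, a VEGF-induced transcription factor (43.5 and 65.6 CPM, ratio 1.51, 1.33 to 1.72), and Svep1, a matrix protein that binds angiopoietins (1.94 and 3.94 CPM, ratio 2.03, 1.13 to 3.75). Genes that VEGF is known to induce were thus found on both sides.

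In capillary EC-like cells 5 of 12 of these genes were past 1.5-fold, beside 16.5% of all genes tested. Esm1 was at 42.3 and 7.71 CPM there (ratio 0.182, 0.126 to 0.256) and Pgf at 63.5 and 16 CPM (ratio 0.252, 0.196 to 0.322). Both stayed low with the capillary clusters weighted as in DMSO, at 0.197 and 0.294. An Angpt2 UMI was found in 36.8% of 76 DMSO capillary cells with Esm1 and in 16.9% of the others, and in MVC in 43.5% of 23 cells and 12.7% of the others. The cells with Esm1 were deeper (median of 4748 against 3375 UMIs in DMSO and 3447 against 2829 UMIs in MVC).

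In FAP-like cells 4 of 12 other genes of the pathway were past 1.5-fold, beside 14.9% of all genes tested. Vegfd, a ligand of Flt4, was at 62.3 CPM in DMSO (791 UMIs) and 26.1 CPM in MVC (353 UMIs), a ratio of 0.419 (0.368 to 0.475). Nid2, a basement membrane protein, was at 50.8 and 83.6 CPM (ratio 1.65, 1.49 to 1.82), and at 1.46 with the clusters weighted as in DMSO. Ptprb, the endothelial phosphatase that restrains Tek, was at 11 and 26.2 CPM (ratio 2.37, 1.94 to 2.91) and Plxnd1, a semaphorin receptor, at 8.74 and 16.2 CPM (ratio 1.85, 1.47 to 2.35). Ptprb and Plxnd1 are far higher in EC-like cells (856 and 97.8 CPM in DMSO). The summed EC markers of FAP-like cells were at 158 and 208 CPM. Neither gene was read without the cells with EC marker UMIs, so the part of endothelial RNA in these ratios was not tested.

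**Figure D5:**
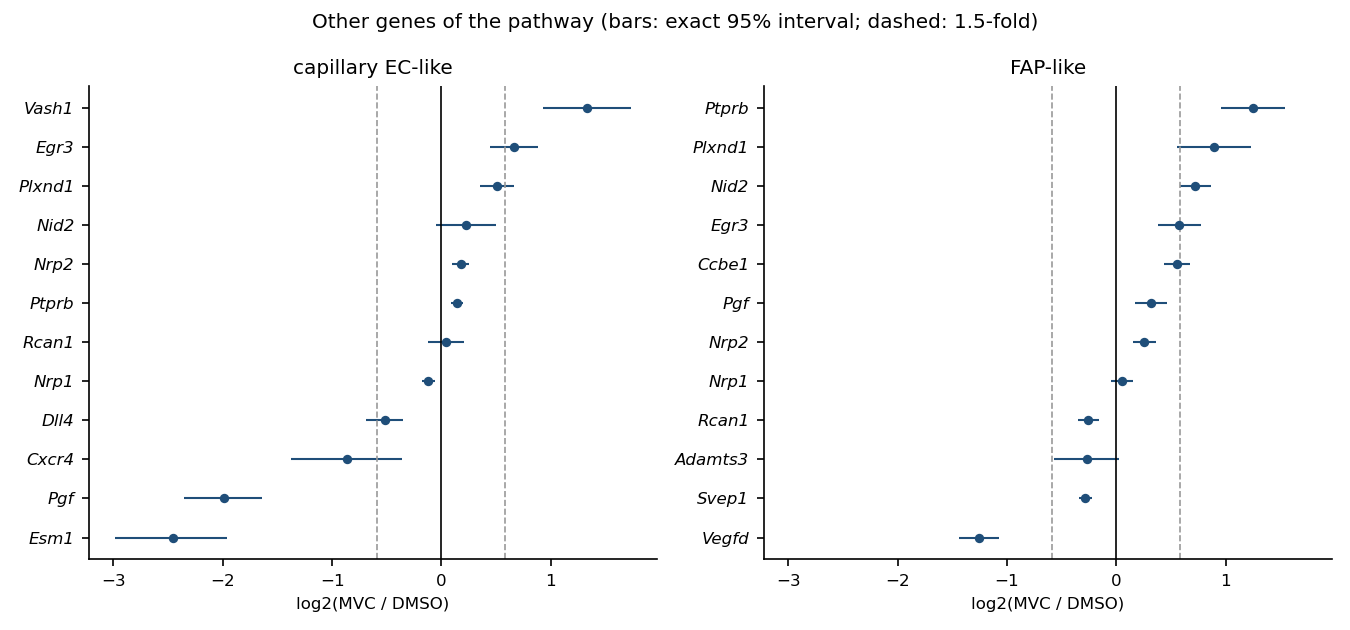
Ratio of the MVC to the DMSO level (x axis, log2, with exact conditional 95% intervals) of the other genes of the pathway with at least 50 UMIs in capillary EC-like and FAP-like cells, sorted by ratio, with dashed lines at 1.5-fold. Esm1 (0.182) and Pgf (0.252) lie lowest in capillary EC-like cells and Vegfd (0.419) lowest in FAP-like cells.

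The genes most like each member were named by the correlation of log2(CPM + 10) over 28 points, the 14 classes of at least 50 cells in each library, among 8013 genes. These points share their 2 libraries, and depth and free RNA, so the values are descriptions. Tie1 was most like Myct1, Cyyr1 and Arap3 (r of 0.99 each), Kdr most like Shank3 (0.98), Kank3 and Cd300lg (0.97 each), and Flt1 most like Sox17, Adgrl4 (0.97 each) and Fut2 (0.96). Flt4 was most like Pdlim3 (0.94), Btnl9 (0.91) and Nova2 (0.9), and Tek most like Card10 (0.86), Ramp2 (0.84) and Rras (0.81). Among the ligands, Angpt2 was nearest to Xiap (0.86), Kank3 and Caskin2 (0.85 each), Angpt1 to Nmb and Trhde (0.86 each) and Ppl (0.84), and Vegfc to Cx3cl1 (0.85), Fas (0.77) and Lama3 (0.75). Vegfa was nearest to Mid1 (0.84), Samd4b and Ackr3 (0.83 each), and Vegfb to Rnf13, Ccl2 and Gm17268 (0.79 each). The highest correlation was above 0.9 for Kdr, Flt1, Flt4 and Tie1 and below it for Tek and the 5 ligands.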

How the data were processed

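Live mononuclear cells of mouse limb muscle were profiled by droplet single-cell RNA-seq (10x Genomics), in 1 library per treatment as given per the labels. The deposited values were raw UMI counts per gene and cell barcode, which the authors wrote with Cell Ranger 7.0.0 for the barcodes called as cells. The build mm10 and Seurat 5.0.1 are listed in the submitters' processing notes. The kit end and whether intronic reads were counted were not given in the sources used here. The libraries held 39150511 and 36063575 UMIs over 5812 and 6047 barcodes (DMSO and MVC).

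Barcodes under 500 genes or over 10% mitochondrial UMIs were dropped, which is the study's own filter. Counts were scaled and log-transformed, and cells were clustered with scanpy 1.11.5 and leidenalg 0.10.2 (2000 variable genes, 30 principal components, 20 neighbours, resolution 1) without integration. The 10 members, the 18 other pathway genes and mitochondrial, sex-linked and haemoglobin genes were kept out. A cluster was named from marker genes when 3 or more of them had a log2 fold of 1 or higher and were found in 20% or more of its cells. Within EC-like cells, 3 clusters (led by Slc1a1, Depp1 and Terb2) met this for no subtype against the other EC-like cells. They were called capillary against arterial and venous cells alone, where 5 to 7 of 9 capillary markers were raised. Class names are therefore not the authors', which can itself make values differ from the study's. Doublets were scored against simulated ones, which marked 236 DMSO (4.34%) and 238 MVC (4.36%) cells. They stayed in, as no doublet removal by the authors was assumed, and were removed in an alternative. Free RNA was not corrected.

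Levels were summed UMIs per 1000000 UMIs of a class and library, with exact Poisson intervals. Ratios carried exact conditional and shares Clopper-Pearson intervals, at 95%, from scipy 1.17.1. For 0 counts an upper limit of 3 counts was used. Thinning drew 2000 UMIs per cell and left out 447 DMSO and 981 MVC cells. Ratios past 1.5-fold were counted in classes of at least 100 cells in each library. The ratio scripts were tested on simulated data. Alternatives changed the cell filter, the class assignment, doublets, level, scaling, depth, shared barcodes, the UMI minimum and the fold. The members, gene lists and rules were chosen with earlier results of these data known. Of the other pathway genes, those past 1.5-fold with an interval that left out 1 were named (at most 5 each way in EC-like and FAP-like cells). Some of these were also given in capillary EC-like cells. The other pathway genes not past that fold in EC-like cells were given by ratio only. Also named were the 3 genes with the most similar pattern per member, and at most 3 hypoxia or dissociation genes per class. Promoters came from RefSeq (GRCm38.p6). Python 3.11.15, numpy 2.4.6, scikit-learn 1.9.0 and matplotlib 3.10.9 were used.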

Additional observations from a re-analysis of the deposited data

Results flagged for a closer look

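Over all cells of a class, Flt1 differed in opposite directions between classes. Its ratio of MVC to DMSO was 1.92 in FAP-like cells (38.2 and 73.5 CPM) and 1.99 in tenocyte-like cells (43.2 and 85.8 CPM), and 0.289 in macrophage-like cells (187 and 54.1 CPM). The difference between these classes was not tested. The summed EC markers moved the same way in each, from 158 to 208 CPM, from 147 to 173 CPM and from 274 to 156 CPM. Without the cells that held at least 2 EC marker UMIs, the ratios were 2.09 (1.59 to 2.76), 1.34 (0.861 to 2.09) and 1.17 (0.695 to 1.98), none of them below 1.

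The 3 clusters that stayed unnamed held several of the genes. A cluster led by Olfr1033 (116 DMSO and 79 MVC cells) had 183 CPM of Vegfa in DMSO and 92.7 CPM in MVC, with Angpt1 at 39.3 and 62.5 CPM and Angpt2 at 49.7 and 60.5 CPM. A cluster led by Gpihbp1, with a median of 1249 UMIs per cell (84 and 37 cells), had 384 and 704 CPM of Kdr and 1622 and 1665 CPM of Flt1. A cluster led by Pappa2 (24 and 28 cells) had 108 and 122 CPM of Vegfc. These cells entered the values over all cells but no class of the report, and their values have no replicate check.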

How the results depend on the processing

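With 1 library per group, no replicate could be left out. No paired analysis was possible because each group holds 1 library and no result comes from a test. Of 565 ratios recomputed under alternatives for 64 member and class pairs, 495 stayed within the counting interval, 69 left it, and 1 of those past 1.5-fold changed direction, the log2 ratio of Flt1 in macrophage-like cells, which was 0.22 once cells with at least 2 EC marker UMIs were removed. A further 22 had too few UMIs for a value. The highest class of a member was the same for 10 of 10 members with doublets removed and for 9 of 10 with the stricter cell filter or with classes by highest marker level, the exception being Vegfb. Removing cells with EC marker UMIs, removing the 3 highest cells and holding the cluster mix were chosen after seeing the data.

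Counts of members past 1.5-fold shifted as follows, and the cause was not tested. In EC-like cells (0), 1 member was past it with classes by highest marker level, with a minimum of 20 UMIs or with no minimum, and 2 at 1.3-fold. In capillary cells (1) it was 2 with no minimum or at 1.3-fold and 0 at 2-fold. In arterial cells (1) it was 0 without doublets, with means over cells, after thinning or at 2-fold, and 3 with a minimum of 20 UMIs or none. In venous cells (2) it was 0 after thinning and 1 with a minimum of 100 UMIs. In FAP-like cells (3) it was 7 at 1.3-fold and 0 at 2-fold. With means over cells the count stayed at 3, but with Kdr in place of Vegfa, whose ratio ranged from 0.559 to 0.701 over the alternatives. In tenocyte-like cells (3) it was 1 after thinning or without cells with EC marker UMIs. In pericyte-like cells (2) it was 4 with means over cells or at 1.3-fold, and 1 with median scaling, after thinning, without cells with EC marker UMIs, without the 3 highest cells, with a minimum of 100 UMIs or at 2-fold. Without doublets the pericyte-like count stayed at 2, but with Tek in place of Vegfa. In MuSC-like cells (1) it was 2 with classes by highest marker level, without doublets, with means over cells, without cells with EC marker UMIs or at 1.3-fold, 3 after thinning or without the 3 highest cells, and 4 with no minimum. In macrophage-like cells (3) it was 1 after thinning, without the 3 highest cells or with a minimum of 100 UMIs, 0 without cells with EC marker UMIs, and 6 with a minimum of 20 UMIs or none.

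With classes by highest marker level, EC-like cells were 70.1% and 60.7% capillary, 16.4% and 23.1% arterial and 13.5% and 16.1% venous (DMSO and MVC), and the stricter filter gave 72.4% capillary and 16.1% arterial in MVC. With a pseudocount of 1 CPM, 17 of the 30 genes most like a member were the same. Thinning moved 68 of 74 shares of cells with a UMI. Fewer UMIs per cell lower such a share in any case, so this count does not bear on the difference between libraries. Depth limits Vegfb in particular, with 360 and 333 UMIs in all cells.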
